A study of Mus musculus with 4 samples.

Results

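The regions described here are acetylated sites of intermediate height that hold the chromatin protein PHF6 and lack a called Polycomb mark, in mouse pre-B acute lymphoblastic leukemia cells. They were chosen by measured values: peaks of the H3K27ac list with a summit height of 35 or more and under 200 that share at least 1 bp with a PHF6 peak and none with an H3K27me3 peak, on chromosomes 1 to 19. Of 32388 H3K27ac peaks, 31732 lay on these chromosomes, 8618 of them had a height in that range, and 438 of the 8618 were set aside because they overlapped H3K27me3. PHF6 was present at 4679 of the remaining 8180, which are the members (14.4% of all H3K27ac peaks), and absent at 3501. PHF6 was profiled by ChIP-seq, in which crosslinked chromatin is captured with an antibody and sequenced, along with H3K27ac, H3K27me3 and an input without antibody. All 4 libraries came from C57BL/6J pre-B leukemia cells that overexpress the fusion kinase BCR-ABL1 on a p19 null background. No wild-type cells and no cells without PHF6 are among the libraries described here. Each antibody had 1 library, so no value below has a replicate error, and no test between conditions exists.

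PHF6 carries PHD-type zinc fingers, is encoded on the X chromosome and is best known as a gene mutated in T-cell leukemia. It has been found with the nucleosome remodelling and deacetylase complex NuRD, which removes acetyl groups from histones. H3K27ac is placed by the acetyltransferases CBP and EP300 at active promoters and enhancers, and H3K27me3 is placed on the same lysine by Polycomb repressive complex 2. A single lysine cannot carry both, but a peak list averages over many cells and nucleosomes.

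Height means the whole-number pileup of reads that the authors deposited for each summit, and score the value deposited for each peak, which starts at 60 in the PHF6 and H3K27ac lists. Both come from the authors' peak calling and are compared only within 1 list. Total reads per library are not in the lists, so sequencing depth is unknown. Shares carry 95% exact (Clopper-Pearson) intervals, which cover counting error only, because neighbouring peaks are not independent. The lists use the mouse build mm9. Genes, promoters and DNA sequence of that build were not used here, so members are named by mm9 position and cytogenetic band.

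Intermediate acetylated sites held PHF6 less often than the H3K27ac list as a whole. PHF6 was at 57.2% (56.1 to 58.3) of the 8180 intermediate peaks. The background was 71.6% for H3K27ac peaks of any height without H3K27me3 and 72.2% for all H3K27ac peaks of chromosomes 1 to 19. Peaks below 35 stood at 68.2% (67.4 to 68.9) and peaks of 200 and over at 95.6% (95.1 to 96.1). Both overlap and height chose the members, so these shares are a description without a test.

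Within the range the share rose with acetylation, and the lower bound of 35 lay close to its lowest point. Below the range the share ran the other way. It fell from 81.6% (79.8 to 83.4) at heights of 11 to 15 to 66.9% (65.5 to 68.3) at 20 to 24 and 56.6% (54.7 to 58.6) at 25 to 29. It was 47.5% (45.0 to 50.0) for heights of 30 to 34, 44.1% (42.2 to 46.1) for 35 to under 50 and 49.3% (47.0 to 51.5) for 50 to under 75. From there it stood at 59.9% (57.0 to 62.8) for 75 to under 100, 66.5% (63.2 to 69.7) for 100 to under 125 and 74.5% (70.8 to 77.9) for 125 to under 150. The last 2 bins, 150 to under 175 and 175 to under 200, stood at 79.8% (76.4 to 83.0) and 82.5% (79.0 to 85.6). From the first to the last bin of the range PHF6 went from 1092 of 2475 peaks to 438 of 531.

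Where PHF6 was called, its height followed that of H3K27ac only weakly over the same range. Where a member overlapped several PHF6 peaks, the tallest was taken. The median PHF6 height was 27 (quartiles 22 and 32) for members with an H3K27ac height of 35 to under 50, 27 (23 and 33) for 75 to under 100 and 28 (24 and 34) for 125 to under 150. It reached 31 (26 and 36) for 175 to under 200. Above the range it went on to 33 at 200 to under 250, 40 at 300 to under 350 and 46 at 350 to 400, and below it the medians were 25 to 27. Across the 4679 members, Spearman's rho between H3K27ac and PHF6 height was 0.16 and Pearson's r 0.08, a description across peaks of 2 libraries. Among the 4606 members with a PHF6 height under 75, Pearson's r was 0.16. Within this range the share with PHF6 rose with acetylation height, and the median height of called PHF6 summits moved little. PHF6 height is known only where a PHF6 peak was called, so weaker PHF6 signal is missing from it. A share and a median are also on unlike scales, so the strengths of these 2 relations were not compared.

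**Figure D1:**
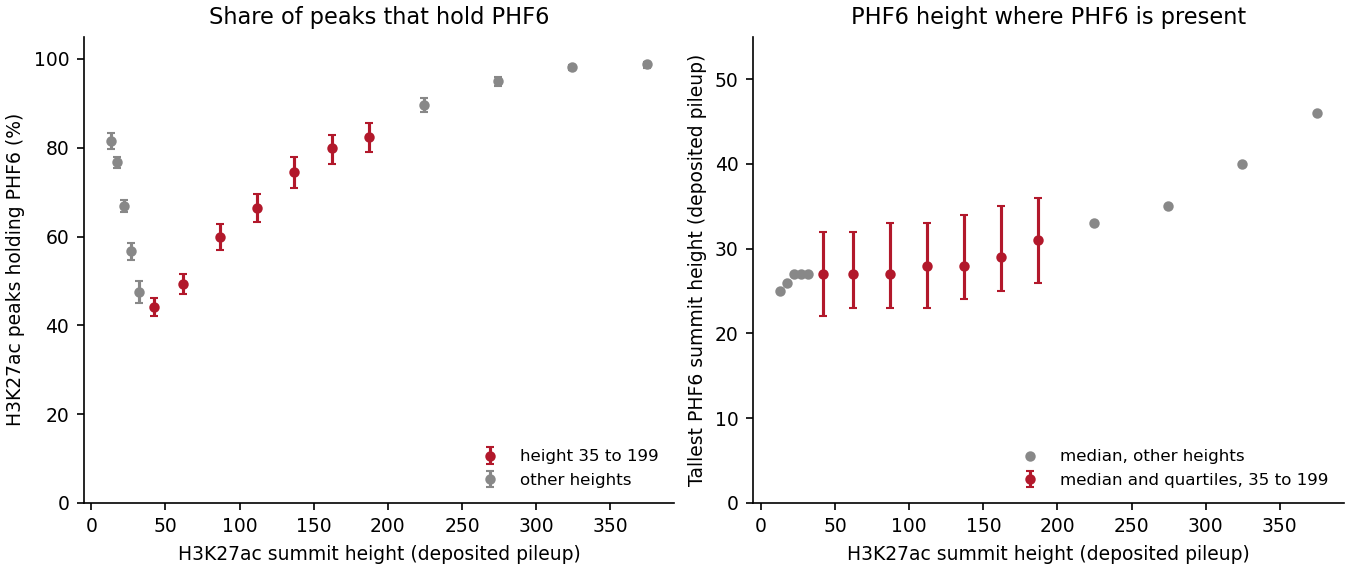
Left, the share of H3K27ac peaks without H3K27me3 that hold PHF6 (percent, with 95% exact intervals) against H3K27ac summit height; right, the median height of the tallest PHF6 summit in the PHF6-holding peaks, with quartiles inside the members' range. The share climbs from 44.1% to 82.5% within the range, while the median PHF6 height moves from 27 to 31.

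Peaks just inside and just outside the bounds had similar values. At an H3K27ac height of 34, 117 of 256 peaks held PHF6 with a median PHF6 height of 27, and at 35 it was 127 of 253 with a median of 26. At the last height under 200 PHF6 was in 21 of 24 peaks with a median of 31, and at 200 in 30 of 35, also with a median of 31. The bounds cut through a gradual change.

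The members were broad regions, with PHF6 summits taller than in the PHF6 list as a whole and lower than in tall H3K27ac peaks. Their H3K27ac height had a median of 83 (quartiles 51 and 135) and their width a median of 1881 bp (1387 and 2644), with extremes of 475 and 13078 bp. Intermediate peaks without PHF6 were as wide, with a median of 1897 bp, but lower, with a median height of 56 (42 and 86). The PHF6 summits in members ran from 13 to 237, with a median of 28 (23 and 33). PHF6 peaks that met no H3K27ac peak had a median height of 20 (18 and 23), and PHF6 in tall H3K27ac peaks one of 38 (32 and 44). In low H3K27ac peaks PHF6 had a median height of 26 (23 and 30), and over all PHF6 peaks it was 22 (19 and 27). Median PHF6 peak widths were 1494 bp in members, 955 bp off acetylation, 1567 bp in low peaks and 1577 bp in tall peaks. Median PHF6 scores were 191 in members, 268 in low and 256 in tall peaks, so widths and scores did not follow the order of the heights.

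Taken over all intermediate heights together, the share with PHF6 differed little between widths up to 5 kb. The share was 56.5% (52.1 to 60.9) among intermediate peaks up to 1 kb wide, 54.3% (52.1 to 56.4) at 2 to 3 kb and 57.4% (54.5 to 60.2) at 3 to 5 kb. Only the 353 peaks over 5 kb wide stood higher, at 69.4% (64.3 to 74.2), and the 245 members among them also had a taller median H3K27ac height of 123. At similar height, members were narrower at the low end of the range. The median width was 1471.5 bp in members against 1619 bp in all intermediate peaks at 35 to under 50. At 50 to under 75 it was 1759 against 1877.5 bp. At 125 to under 150 both were 2077 bp, and at 175 to under 200 they were 2088 and 2086 bp.

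In close to 50% of the members PHF6 had its summit within 100 bp of the acetylation summit, and the distances ran on in a long tail. The median distance from a member's H3K27ac summit to the nearest PHF6 summit was 107 bp (quartiles 35 and 437). Both summits lay within 50 bp of each other in 32.5% (31.2 to 33.9) of members and within 100 bp in 48.4% (46.9 to 49.8). They were over 500 bp apart in 23.0% (21.8 to 24.2) and over 1 kb apart in 11.4% (10.5 to 12.3). The number of members per bp of distance fell from each distance class to the next.

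The members lay between the neighbouring height classes in how close both summits were, but not in how often they were far apart. Within 50 bp the shares were 23.8% (23.0 to 24.7) for low and 42.1% (40.9 to 43.2) for tall PHF6-holding peaks. Over 500 bp the low peaks stood at 21.8% (21.0 to 22.6), next to the members, and the tall ones at 8.30% (7.66 to 8.98). At this fixed distance the displaced tail was therefore about as large in members as in low peaks. Low peaks were narrower, with a median width of 994 bp against 1881 bp, so the same distance more often reaches past their edges. No test compares these classes, since their heights chose them.

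**Figure D2:**
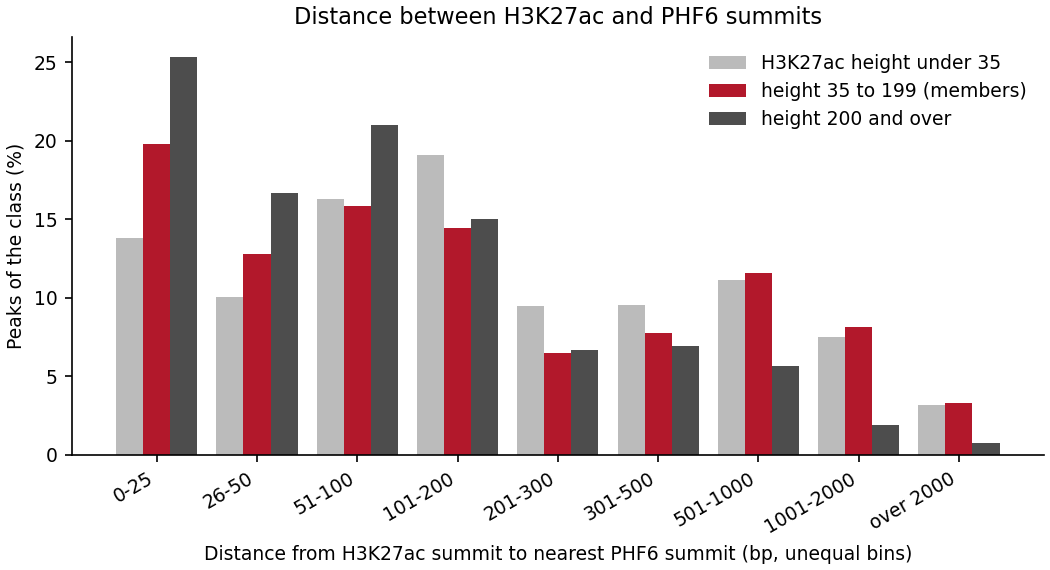
Share of peaks (percent of each class) by distance from the H3K27ac summit to the nearest PHF6 summit (bp, unequal bins), for PHF6-holding H3K27ac peaks of 3 height classes. The members exceed the low class within 50 bp and stay near it beyond 500 bp, where the tall class is lowest.

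Displacement went with width more than with height. In members up to 1 kb wide the median summit distance was 36.5 bp (quartiles 10 and 96.8), at 2 to 3 kb it was 178 bp (45 and 691), and over 5 kb it was 629 bp (64 and 1657). Across members, width and summit distance had a Spearman's rho of 0.34, and H3K27ac height and summit distance one of -0.05. A wider peak leaves more room for the summits to part, so the first value has a geometric share that was not tested. The lower quartile was still 64 bp in the widest class, so closely matched summits occurred at every width.

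At least 1 PHF6 summit was inside the H3K27ac peak in 4484 members (95.8%, 95.2 to 96.4), against 85.3% (84.6 to 86.0) of low and 99.4% (99.2 to 99.6) of tall PHF6-holding peaks.

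The other 195 members held only the flank of a PHF6 peak. Its summit lay a median of 697 bp (quartiles 389 and 1304) beyond the H3K27ac edge. These PHF6 peaks were broad, with a median width of 3070 bp and a median height of 27, and in 100 of the 195 (51.3%, 44.0 to 58.5) the same PHF6 peak also met another H3K27ac peak. They shared a median of 91.1% of the member's width, so most of them spanned much of the acetylated site and had their summit outside it.

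Most members held 1 PHF6 peak, and several were more frequent in wide members. A single PHF6 peak was found in 4201 members (89.8%), 2 in 424, 3 in 43, 4 in 10 and 5 in 1. The 478 members with more than 1 make up 10.2% (9.36 to 11.1), compared with 1.34% (1.13 to 1.58) of low and 7.20% (6.59 to 7.84) of tall PHF6-holding peaks. Their frequency was 0.699% in members up to 1 kb wide, 28.3% at 3 to 5 kb and 54.3% over 5 kb. Neighbouring PHF6 summits inside 1 member lay a median of 2070 bp apart (quartiles 1477 and 2898). PHF6 peaks covered a median of 85.3% (65.1 and 97.4) of a member's width, and the whole of it in 18.7% (17.6 to 19.9). In low PHF6-holding peaks the median cover was 100%, with the whole width covered in 72.7% (71.8 to 73.5). In tall ones these values were 73.8% and 2.84% (2.46 to 3.26). The classes differ in width, with medians of 994 bp in low peaks, 1881 bp in members and 2234 bp in tall peaks. In all, 5186 PHF6 peaks met a member, of which 37 met at least 2 members.

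The member with the most PHF6 peaks was a single broad acetylated region on chromosome 5 at 93386555 to 93397301 (qE2), 10747 bp wide with an H3K27ac height of 121. Its 5 PHF6 summits had heights of 20, 22, 24, 21 and 22 and lay from -2591 to 6832 bp relative to the H3K27ac summit. All 5 were below the members' median of 28. A region on chromosome 4 at 149024813 to 149035701 (qE2), with an H3K27ac height of 180, held PHF6 summits of 40, 33, 26 and 41, the first of them just beyond the left edge of its 10889 bp. On chromosome 7 at 30121656 to 30129496 (qB1) the heights were 22, 41, 23 and 19, and the tallest stood 34 bp from the H3K27ac summit. A further 2 lay on chromosome 4 at 133671207 to 133681655 and at 140499244 to 140509906 (both qD3), where the tallest PHF6 summits, both of height 38, stood 6045 and 1194 bp from the H3K27ac summit. These 4 were taken, by the height of their tallest PHF6 summit, from 10 members that each held 4 PHF6 peaks. Over all 11 members with 4 or more, widths ran from 3670 to 11448 bp and the tallest PHF6 summit was 24 to 41 high. In 9 of the 11 it lay over 1 kb from the acetylation summit.

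**Figure D3:**
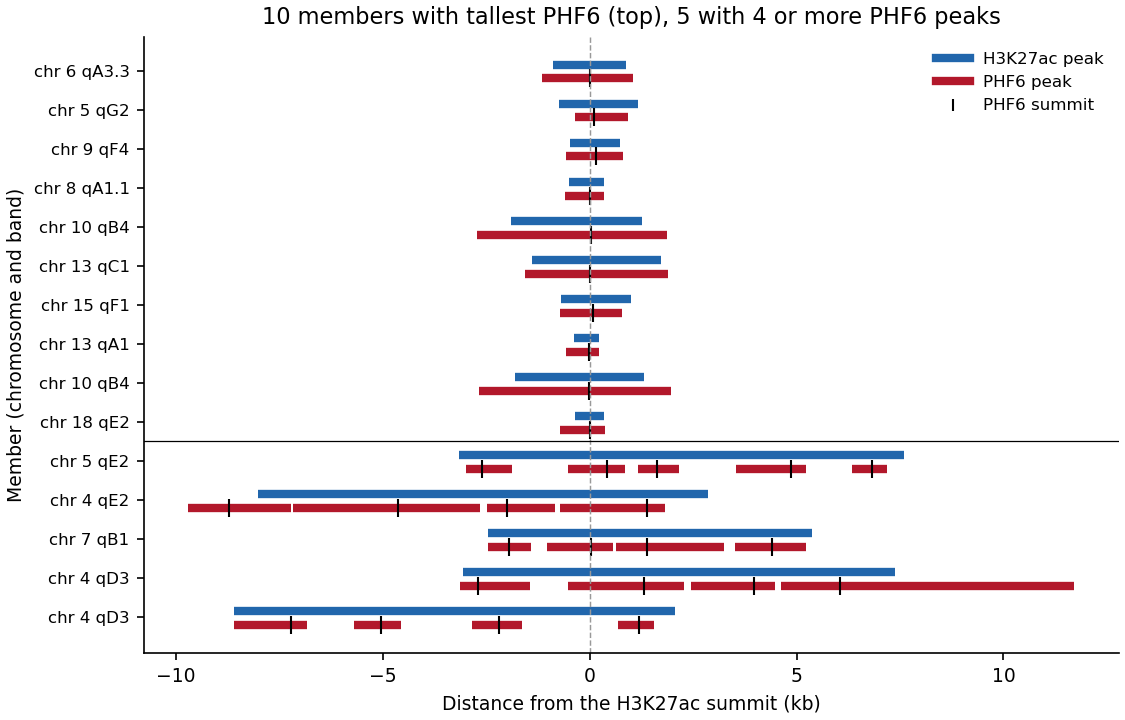
H3K27ac peak (blue), all overlapping PHF6 peaks (red) and their summits (black ticks) for the 10 members with the tallest PHF6 summit, above the line, and 5 of the 11 with 4 or more PHF6 peaks, below it, as distance in kb from the H3K27ac summit. In the first group PHF6 is centred on the acetylation summit, always under 150 bp away, and in the second the 4 or 5 PHF6 summits of each member are spread over several kb.

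Members with the tallest PHF6 summits differed from the others in several measures. PHF6 height was 75 or more, a cut not planned in advance, in 73 members (1.56%, 1.22 to 1.96). Their summits almost coincided, with a median distance of 9 bp (quartiles 2 and 75) against 110 bp in the other 4606. They were narrower, at a median of 1214 bp against 1890 bp, and farther from tall H3K27ac peaks, at a median of 113163 bp against 34963 bp. Of the 73, 37 (50.7%, 38.7 to 62.6) had no other H3K27ac peak within 12500 bp, edge to edge, against 27.8% (26.5 to 29.1) of the other members.

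Their H3K27ac scores were low for their H3K27ac heights. The median score was 191 (quartiles 136 and 341) against 1247 in the other members, although the median heights, 74 and 84, were close. A score in the lowest 10% for its height, taken over all intermediate peaks in each of 7 height bins, was found in 59 of the 73 (80.8%, 69.9 to 89.1), in 8.19% (7.42 to 9.01) of all members and, by construction, in 10% of the intermediate peaks. The shift began below 75: of the 52 members with a PHF6 height of 50 to 74, 22 (42.3%, 28.7 to 56.8) had such a score, with a median score of 428, while in each class of PHF6 height under 50 the share was at most 8.27%. Scores under 25% of the median for their height were rarer: 87 intermediate peaks had one, 61 of them held PHF6, and in 43 of the 61 (70.5%, 57.4 to 81.5) PHF6 reached 75. Height is read at 1 base, while the score belongs to the whole peak. Whether signal shared by all libraries contributes was not tested, and the input was not analysed here. Without this group the median PHF6 height of the members stayed at 28 and the median summit distance was 110 bp. Pearson's r between H3K27ac and PHF6 height moved more, from 0.08 in all members to 0.16 without the group. Spearman's rho was 0.16 with and without it.

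**Figure D4:**
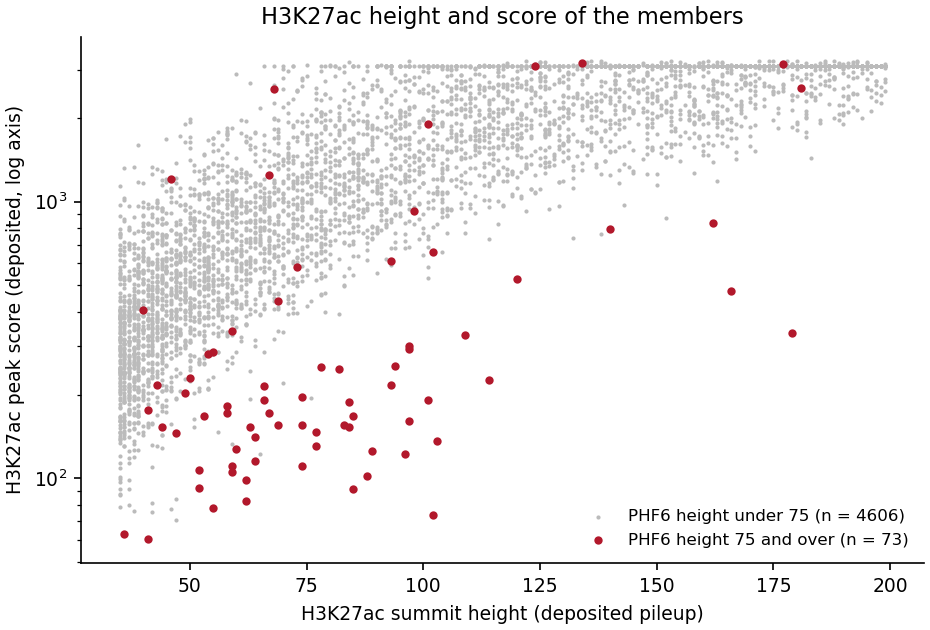
H3K27ac score (deposited, log axis) against H3K27ac summit height (deposited pileup) for the 4679 members, each point 1 peak; red points are the 73 members with a PHF6 height of 75 or more. Most red points lie toward the low-score side: 59 of the 73 are in the lowest 10% of score for their height, as are 324 of the 4606 grey points.

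The 10 members with the tallest PHF6 summits show both kinds of site. The tallest, on chromosome 6 at 29697563 to 29699321 (qA3.3), had a PHF6 height of 237 and an H3K27ac height of 166, with summits 2 bp apart. Its H3K27ac score was 475, where the median for its height was 2859. The second, on chromosome 5 at 138627626 to 138629516 (qG2), differed in score: PHF6 stood at 210, H3K27ac at 177, and the H3K27ac score of 3142 lay where scores pile up. Of the 10, only this region and the one on chromosome 15 at 97822625 to 97824318 (qF1; PHF6 178, H3K27ac 98, score 922) had a score outside the lowest 10%.

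The other 7 also had an H3K27ac score in the lowest 10% for their height. On chromosome 9 at 123370496 to 123371695 (qF4) a PHF6 height of 195 met an H3K27ac height of 102 with a score of 73.8, and the summits were farther apart than in the rest of the 10. On chromosome 8 at 15519438 to 15520284 (qA1.1) both summits fell on 1 base, with heights of 189 and 97, and the nearest tall H3K27ac summit was 1612 kb away. On chromosome 10 (qB4) a pair of members at 57685409 to 57688575 and 57693116 to 57696244 had PHF6 heights of 186 and 175 and H3K27ac heights of 114 and 103, with no other H3K27ac peak in their joined region. The last 3 were on chromosome 13 at 74665557 to 74668693 (qC1, PHF6 178) and 9833316 to 9833920 (qA1, 177) and on chromosome 18 at 68851563 to 68852260 (qE2, 168). In these 3 both summits were at most 13 bp apart.

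Among members whose score was not in the lowest 10%, 3 more stood out by PHF6 height, in a ranking chosen after their values were seen. They were on chromosome 17 at 17510392 to 17512458 (qA3.2, PHF6 159, H3K27ac 181), chromosome 11 at 108781212 to 108783598 (qE1, 139 and 134) and chromosome 15 at 72984052 to 72989127 (qD3, 134 and 124). Their H3K27ac scores were 2577, 3177 and 3100, beside medians of 3100, 2350 and 1818 for their heights. Scores pile up near 3100, and 18.7% (17.6 to 19.8) of members had one of 3000 or more, so values there may be capped. Their PHF6 scores of 1837, 3100 and 1543 were above the median of 627 for members with a PHF6 height of 75 or more.

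The tallest PHF6 summits at either bound of the range come from few members. Among the 127 members with an H3K27ac height of exactly 35, the 5 tallest PHF6 summits were 70 on chromosome 6 at 114290910 to 114292634 (qE3), 58 on chromosome 6 at 3087669 to 3091965 (qA1), 57 on chromosome 17 at 50559287 to 50559920 (qC), 52 on chromosome 18 at 20773538 to 20780145 (qA2) and 45 on chromosome 1 at 182874094 to 182876371 (qH4). In the first 4 the summits were at most 10 bp apart, and in the last 3199 bp. Among the 21 at the last height under 200 the tallest was 71, on chromosome 4 at 88427049 to 88429585 (qC4), where a PHF6 peak of 13045 bp covered the member and had its summit 5827 bp away. The next 4 at that height were between 40 and 44.

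Members lay near a tall acetylated peak about as often as H3K27ac peaks in general. A tall H3K27ac summit (height 200 and over) lay within 12500 bp of 976 members (20.9%, 19.7 to 22.1), beside a background of 18.1% for all H3K27ac peaks of these chromosomes. Intermediate peaks without PHF6 stood at 16% (14.8 to 17.2) and low PHF6-holding peaks at 20.3% (19.5 to 21.1). With H3K27ac peaks joined at gaps of up to 12500 bp, 1833 members (39.2%, 37.8 to 40.6) shared a joined region with a tall peak, against 26.7% (25.3 to 28.2) of intermediate peaks without PHF6 and 48.4% (47.9 to 49) of all H3K27ac peaks, which include the tall ones. Another 1318 members (28.2%, 26.9 to 29.5) were the only H3K27ac peak of their region, below the 36.8% (36.3 to 37.3) of all H3K27ac peaks. In regions of at least 2 peaks, 992 of 3361 members were the tallest peak. Every region has a tallest peak, and the 31732 H3K27ac peaks formed 17052 joined regions, 11674 of them single peaks. The count is therefore not read as a trait of members.

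The next acetylated site held PHF6 about as often around members as in the whole list, and less often around intermediate peaks without PHF6. The nearest other H3K27ac peak held PHF6 for 74.4% (73.1 to 75.7) of members, where 72.2% of all H3K27ac peaks held it, and for 49.6% (48.0 to 51.3) of intermediate peaks without PHF6. The share was 83.2% (82.4 to 83.9) for low and 69.2% (68.1 to 70.3) for tall PHF6-holding peaks. In 260 members that neighbour was met by the same PHF6 peak, and with these left out the share was 72.9% (71.6 to 74.2). The difference was larger for neighbours up to 5 kb away than for those over 50 kb away. At 2 to 5 kb it was 75.5% (73.1 to 77.7) against 42.5% (39.3 to 45.8), from 12500 bp to 50 kb 69.9% (67.0 to 72.7) against 56.9% (53.6 to 60.1), and over 50 kb 67.4% (62.8 to 71.8) against 56.4% (51.3 to 61.5).

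**Figure D5:**
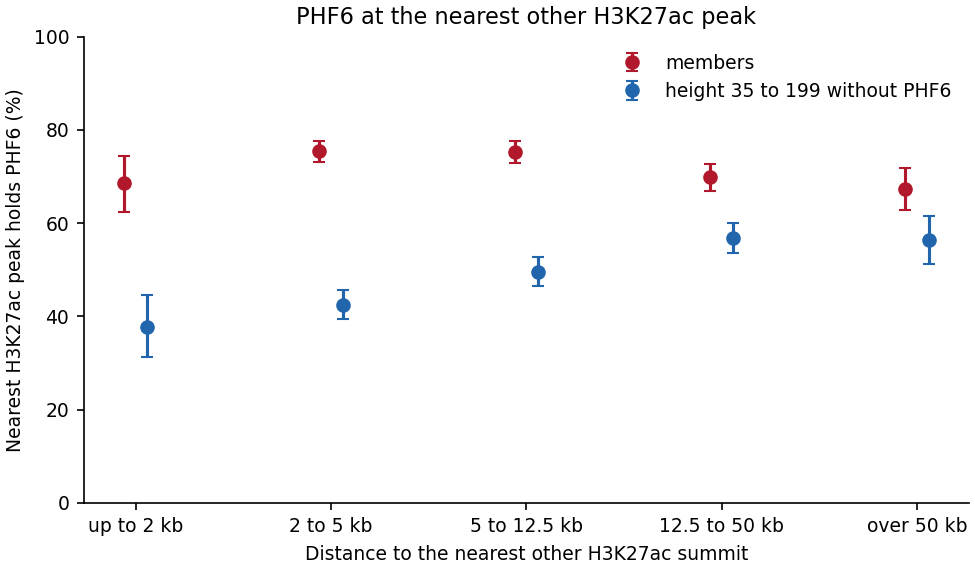
Share of peaks whose nearest other H3K27ac peak holds PHF6 (percent, 95% exact intervals), by distance to that peak's summit, for members (red) and intermediate peaks without PHF6 (blue), with pairs that share a PHF6 peak left out. Members are higher in all 5 distance classes, by 75.5% to 42.5% at 2 to 5 kb and by 67.4% to 56.4% over 50 kb.

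Members are taller than intermediate peaks without PHF6, so the neighbours were also compared within height bins, shared PHF6 peaks included. Only members can share a PHF6 peak with their neighbour, as 260 of the 4679 did. Such pairs raise the member share alone, and they were not left out within the bins. Over the 7 bins the share with a PHF6-holding neighbour was 70.1% to 77.5% for members and 46.2% to 60.2% for peaks without PHF6, and the member share was the higher in each bin. The intervals were apart in the 5 bins under 150, for 35 to under 50 at 77.5% (74.9 to 79.9) against 49.2% (46.6 to 51.9). They overlapped for 150 to under 175 and for 175 to under 200, the latter at 74% (69.6 to 78.0) against 60.2% (49.5 to 70.2), where 93 peaks lacked PHF6.

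PHF6 peaks off acetylation were also denser around members. At least 1 PHF6 summit of a peak without H3K27ac lay within 10 kb of 2729 members (58.3%, 56.9 to 59.7), with a mean of 1.18 ± 1.35 such summits (SD over 4679 peaks). Around intermediate peaks without PHF6 these values were 32.6% (31.0 to 34.2) and 0.506 ± 0.901 (SD over 3501 peaks). Low PHF6-holding peaks stood above the members, at 65.4% (64.5 to 66.3), and tall ones below, at 38.2% (37.0 to 39.3). The local density of H3K27ac and PHF6 peaks was not measured, and its part in these neighbour values was not tested.

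Some joined regions held many members. Over chromosomes 1 to 19 members were 14.7% of H3K27ac peaks, so a region with many H3K27ac peaks can hold many members at that share. The 4679 members lay in 3422 joined regions, of which 2757 held 1 member, 395 held 2 and 270 held 3 or more. The regions with the most were looked up after their counts were seen. On chromosome 8 from 73085773 to 73439100 (qB3.3) 15 of 70 H3K27ac peaks were members, with PHF6 heights of 23 to 44 and a median of 31. On chromosome 12 from 114094776 to 114189196 (qF1) 11 of only 18 H3K27ac peaks were members, with PHF6 heights of 22 to 43 and a median of 36, above the members' median of 28. On chromosome 14 from 26276126 to 26407625 (qA3) 11 of 33 were members, with lower PHF6 heights of 17 to 29 and a median of 24. The chromosome 4 region from 140459876 to 140634825 (qD3) had 11 members of 38 and a median PHF6 height of 30, and that on chromosome 10 from 79312325 to 79660557 (qC1) had 10 of 72 and a median of 32.5. The median PHF6 height thus ranged from 24 to 36 among the 5 regions.

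Although no member overlaps H3K27me3, the mark was not always far away. An H3K27me3 summit lay within 10 kb of 369 members (7.89%, 7.13 to 8.70), against 10.8% (10.5 to 11.2) of all H3K27ac peaks, which include those that overlap the mark. Intermediate peaks without PHF6 stood at 5.63% (4.89 to 6.44). The median distance was 95073 bp for members and 117514 bp for intermediate peaks without PHF6.

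Across the genome, members were densest and sparsest on the same chromosomes as the H3K27ac peaks. Chromosome 11 had 472 members (3.87 per Mb) and chromosome 3 had 155 (0.971 per Mb), where all H3K27ac peaks stood at 22.2 and 8.44 per Mb. Over the 19 autosomes members averaged 1.89 per Mb. Relative to all H3K27ac peaks of a chromosome, members ranged from 11.5% on chromosome 3 to 17.5% on chromosome 11. The share of intermediate peaks with PHF6 was lowest on chromosome 3, at 43.3% (38.1 to 48.6), and highest on chromosome 4, at 67.5% (63.4 to 71.5). PHF6 height did not follow this spread, with a median of 26 to 30 on every autosome.

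Giemsa-light bands, known to be rich in genes, span 41.2% of autosomal sequence. They held 52.9% of members, 49.9% of all H3K27ac peaks and 45.1% of intermediate peaks without PHF6. In them 61.0% (59.5 to 62.5) of intermediate peaks held PHF6. In the darkest bands, 31.2% of the autosomes, this share was 49% (46.5 to 51.5). Intermediate acetylation was therefore met by PHF6 more often in light than in dark bands.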

How the data were processed

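Peak and summit lists of the PHF6, H3K27ac and H3K27me3 libraries were analysed; the input library was not analysed here. Bowtie2, SAMtools and MACS 1.4.0 with build mm9 are named in the submitters' processing notes, without options. The file names give a threshold of 1e-6 for each list and carry the tag nolambda for PHF6 and H3K27ac only. The authors deposited a score per peak and, per summit, a pileup signal. The sources used here do not give a control or pooling. Peaks were joined to summits by peak name. Overlap needed 1 bp. Distances run between summits. Values were computed in Python 3.11.15 (scipy 1.17.1, pandas 2.3.3, numpy 2.4.6) and plotted with matplotlib 3.10.9. Under R 4.3.3, circlize 0.4.16 gave the bands and GenomeInfoDb 1.38.1 the chromosome lengths. The overlap routine, tested on simulated data, found all 1237 planted overlaps among 2000 simulated peaks. Regions named are the 10 members with the tallest PHF6 summit, the 5 with the most PHF6 peaks (ties by PHF6 height) and the 5 tallest PHF6 summits at each height bound. The members, classes and lists were chosen with earlier results of these data known. Since the reference tables are of GRCm38, start sites, gene lists, motifs and sequences were not used here. Alternatives are given in the closing section.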

Additional observations from a re-analysis of the deposited data

How the results depend on the processing

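Of 55 values under alternative settings, 39 stayed within the counting interval of the reported value (for the number of members, within 1.5 times). The share of intermediate peaks holding PHF6 (57.2%) was 45.0% with PHF6 scores of at least 100, 54.8% with a PHF6 summit inside the peak, 58.4% at heights of 50 to under 150, 59.9% at 30 to under 250 and 58.5% with H3K27me3 allowed. The median summit distance (107 bp) was 130, 100, 114.5 and 100 bp under the first 4 of these. The number of members (4679) fell to 2670 at 50 to under 150. With PHF6 scores of at least 100 the median PHF6 height (28) was 29 and the share with a PHF6 summit inside (95.8%) was 94.8%; requiring an overlap of 50% of the shorter peak gave 96.7%. A tall H3K27ac summit was within 5 kb of 5.56% of members (20.9% within 12500 bp). Leaving out peaks of low score for their height, chosen after seeing the data, gave a PHF6 share of 58.4% and a distance of 118 bp. Alternatives on start sites and motifs were not run, since no genes or genome of mm9 were at hand. No paired analysis was possible because there was a single library for every antibody. Unknown depth limits the shares: a deeper PHF6 library could call more low peaks, and the H3K27me3 list, called under another setting, sets which sites count as free of that mark.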

Other observations

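Sites left out by the choice of members give further values. Of the 438 intermediate H3K27ac peaks of chromosomes 1 to 19 that overlapped H3K27me3, 362 held PHF6 (82.6%, 78.8 to 86.1), against 57.2% (56.1 to 58.3) of those without H3K27me3. Another 75 peaks on chromosomes X and Y had an intermediate height, PHF6 and no H3K27me3. In a split chosen after seeing the data, intermediate peaks with a score in the lowest 10% for their height held PHF6 in 383 of 820 cases (46.7%, 43.2 to 50.2) and the others in 4296 of 7360 (58.4%, 57.2 to 59.5). Scores under 25% of the median went the other way, at 61 of 87 (70.1%, 59.4 to 79.5). Among peaks of height 175 to under 200, those with a score in the lowest 10% for their height held PHF6 in 21 of 53 cases (39.6%, 26.5 to 54.0) and the others in 417 of 478 (87.2%, 83.9 to 90.1).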
